A study of Homo sapiens with 12 samples.

Results

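The 7 genes described here are *LGALS1*, *LGALS2*, *LGALS3*, *LGALS4*, *LGALS8* and *LGALS9*, which encode galectins, and *LGALS3BP*, which encodes galectin-3 binding protein. They were taken by symbol from a table of 23346 genes. The rule names no measured value, but the set was chosen with earlier results of these data known. All 7 were listed, and all 7 passed the filter on low values (a mean RPKM of at least 0.1 over the 12 samples). RPKM is the number of reads of a gene divided by its length in kilobases and by the size of the library, so levels of different genes can be compared per length.

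The samples were RNA-seq libraries of SW1990 and CFPAC-1, both established human pancreatic adenocarcinoma cell lines, sorted with GCTM-5, a mouse monoclonal antibody to a surface glycoprotein antigen. The 4 groups were GCTM-5 positive and GCTM-5 negative cells of each line, with 3 samples in each, and no group had a further treatment or genetic change. According to the labels, the gates took only strongly stained and unstained cells, so cells of intermediate staining were in no group. Every library came from polyadenylated RNA of monolayer cultures. The study's methods describe the samples as coming from triplicate sorts, and the labels number the replicates without naming separate cultures. The p-values therefore measure the spread between these samples, which may be partly technical. The library kit was strand-specific SureSelect by the labels and TruSeq by the study's methods, and these sources also differ on the label of the secondary antibody (peroxidase or a fluorescent dye) and on the medium (Iscove's or RPMI). Each line stands for a single tumour, and the design compares the sorted cells within a line and the lines within a sorted class.

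Galectins are small proteins that bind beta-galactosides on glycoproteins and glycolipids. They are made in the cytosol, leave the cell without a signal peptide and cross-link glycoproteins outside it, and several also bind damaged endosomes from the inside of the cell. Galectin-1 and galectin-2 are of the prototype class, whose like subunits pair into dimers, galectin-3 is the chimera type, whose domain follows a flexible tail, and galectins 4, 8 and 9 are tandem-repeat proteins that carry different domains on the same chain. Galectin-3 binding protein is a heavily glycosylated secreted protein of the scavenger receptor cysteine-rich family that binds galectins, collagens, fibronectin and nidogen. It is known as an interferon-inducible gene, and the study isolated it with the GCTM-5 antigen.

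Upstream sequence is shown for *LGALS3BP* and *LGALS3*, the binding protein and the galectin it is named for, because their levels separated the lines in opposite directions. Both come from the RefSeq promoter table (GRCh38.p14) and were placed by an exact match in GRCh37, the build of the files. *LGALS3BP* lies on the minus strand of chromosome 17 between 76967320 and 76976029, and the 226 bases shown (chr17:76976030-76976255, minus strand) lie before its annotated exons. Another 24 bases next to the RefSeq start fall in an annotated exon and were left out. *LGALS3* lies on the plus strand of chromosome 14 between 55590828 and 55612141, and the 250 bases shown (chr14:55595720-55595969, plus strand) precede the RefSeq start and overlap no annotated exon. Capitals mark matches to searched motifs.
LGALS3BP: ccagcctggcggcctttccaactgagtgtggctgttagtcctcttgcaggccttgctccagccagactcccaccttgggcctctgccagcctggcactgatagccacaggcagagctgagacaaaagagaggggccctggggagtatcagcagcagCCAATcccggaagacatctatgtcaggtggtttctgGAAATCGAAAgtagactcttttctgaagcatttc
LGALS3: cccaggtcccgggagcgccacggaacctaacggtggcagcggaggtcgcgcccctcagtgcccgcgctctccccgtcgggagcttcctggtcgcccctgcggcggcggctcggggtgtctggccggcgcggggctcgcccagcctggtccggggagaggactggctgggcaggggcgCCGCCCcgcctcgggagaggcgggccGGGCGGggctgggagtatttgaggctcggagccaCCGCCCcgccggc

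The TATA box (TATAAA), the GC box (GGGCGG), the CCAAT box (CCAAT), the STAT element (TTCNNNGAA) and the core of the interferon-stimulated response element (GAAA, any 2 bases and GAAA again) were searched on both strands of the 250 bases before each start, and no match overlapped another in these windows. The *LGALS3BP* window held the response element core, with its first base 58 bases before the start, and CCAAT 94 bases before it. The core was present in 3.02% of the 35116 windows in the table and CCAAT in 32.0%. The *LGALS3* window held GGGCGG at 3 positions, once as written and otherwise on the other strand, and GGGCGG was present in 42.6% of windows. The windows also differed in composition, with 56.8% G or C and 4 CpG pairs for *LGALS3BP* and 78.8% and 32 for *LGALS3*. Of the 7 genes, 6 had an entry in the table, and *LGALS1* had none. A match is a description of letters and no measured binding site.

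*LGALS3BP* was the most abundant of the 7 genes in every sample. Its level was 1259, 1545 and 1569 RPKM in negative SW1990 cells and 1009, 1264 and 1138 RPKM in positive SW1990 cells. In CFPAC-1 it was 528, 522 and 507 RPKM in negative cells and 437, 465 and 583 RPKM in positive cells. The lines did not overlap, whereas the sorted groups did overlap within each line. By group mean it ranked 14th and 16th of all genes in SW1990 negative and positive cells, and 62nd and 58th in CFPAC-1 negative and positive cells.

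*LGALS1*, on the plus strand of chromosome 22 (38071643 to 38075809), encodes galectin-1, a prototype galectin made by many mesenchymal cells. It was listed at 421, 555 and 385 RPKM in negative SW1990 cells and at 328, 259 and 261 RPKM in positive SW1990 cells. CFPAC-1 negative cells held 60.8, 40.2 and 43.7 RPKM and CFPAC-1 positive cells 50.4, 60.4 and 42.4 RPKM. Every SW1990 sample was above every CFPAC-1 sample, and every positive SW1990 sample was below every negative one.

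*LGALS3*, which encodes the chimera-type galectin-3, had the opposite order of lines. Negative SW1990 cells held 44.9, 57.3 and 57.2 RPKM and positive SW1990 cells 56.3, 76.1 and 71.8 RPKM. The level was 194, 250 and 240 RPKM in negative CFPAC-1 cells and 127, 168 and 134 RPKM in positive CFPAC-1 cells. Every CFPAC-1 sample was above every SW1990 sample, and within CFPAC-1 the positive samples were all below the negative ones. Because of the opposed orders, the ratio of *LGALS1* to *LGALS3* was 8.60 ± 1.63 (SD, n = 3) in negative and 4.29 ± 1.34 (n = 3) in positive SW1990 cells, but 0.219 ± 0.0822 and 0.357 ± 0.0398 in CFPAC-1 negative and positive cells (n = 3 each).

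Among the tandem-repeat galectins, *LGALS9* (chromosome 17, plus strand, 25956824 to 25976586) encodes galectin-9, a ligand of the immune checkpoint receptor TIM-3. It was listed at 48.5, 58.1 and 62.4 RPKM in negative SW1990 cells and at 36.6, 57.2 and 49.5 RPKM in positive SW1990 cells. Negative CFPAC-1 cells held 27.3, 26.9 and 23.7 RPKM, and positive CFPAC-1 cells 16.7, 17.1 and 25.1 RPKM. As for *LGALS3BP*, the lines were separate, the sorted groups overlapped in each line, and the third positive CFPAC-1 sample was above the other two.

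*LGALS8* (chromosome 1, plus strand, 236681300 to 236716281) encodes galectin-8, which marks damaged vesicles for autophagy. Its levels were the most even of the 5 members above a few RPKM: 26.8, 25.4 and 30.4 RPKM in negative and 25.0, 37.7 and 37.3 RPKM in positive SW1990 cells. CFPAC-1 negative cells held 31.3, 34.5 and 33.5 RPKM and CFPAC-1 positive cells 30.8, 27.8 and 26.6 RPKM. The positive CFPAC-1 samples were all below the negative ones, and the SW1990 groups overlapped. Exons of *HEATR1* and *LGALS8-AS1* overlap *LGALS8* on the opposite strand, and whether the counting used strand is not given in the sources used here, so reads of these genes may not be separated.

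The remaining members were near the limit of the depth. *LGALS2* (chromosome 22, minus strand, 37966255 to 37978623), a gut galectin, rested on 2 to 9 reads per sample in SW1990 and 6 to 15 in CFPAC-1, with group means of 0.509 and 0.659 RPKM in SW1990 negative and positive cells and of 1.05 and 1.10 RPKM in CFPAC-1 negative and positive cells. *LGALS4* (chromosome 19, minus strand, 39292311 to 39303585), an intestinal galectin of apical transport, rested on 1 to 6 reads per sample, with group means between 0.128 and 0.156 RPKM. No difference in *LGALS4* could have been shown at so few reads.

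Placed in order of group means, negative SW1990 cells ran *LGALS3BP*, *LGALS1*, *LGALS9*, *LGALS3*, *LGALS8*, *LGALS2* and *LGALS4*, and only *LGALS9* and *LGALS3* overlapped among neighbours at or above 1 RPKM. In positive SW1990 cells *LGALS3* stood above *LGALS9*, and each of *LGALS3*, *LGALS9* and *LGALS8* overlapped its neighbour. Both CFPAC-1 groups ran *LGALS3BP*, *LGALS3*, *LGALS1*, *LGALS8* and *LGALS9*, with no overlap between neighbours.

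**Figure D1:**
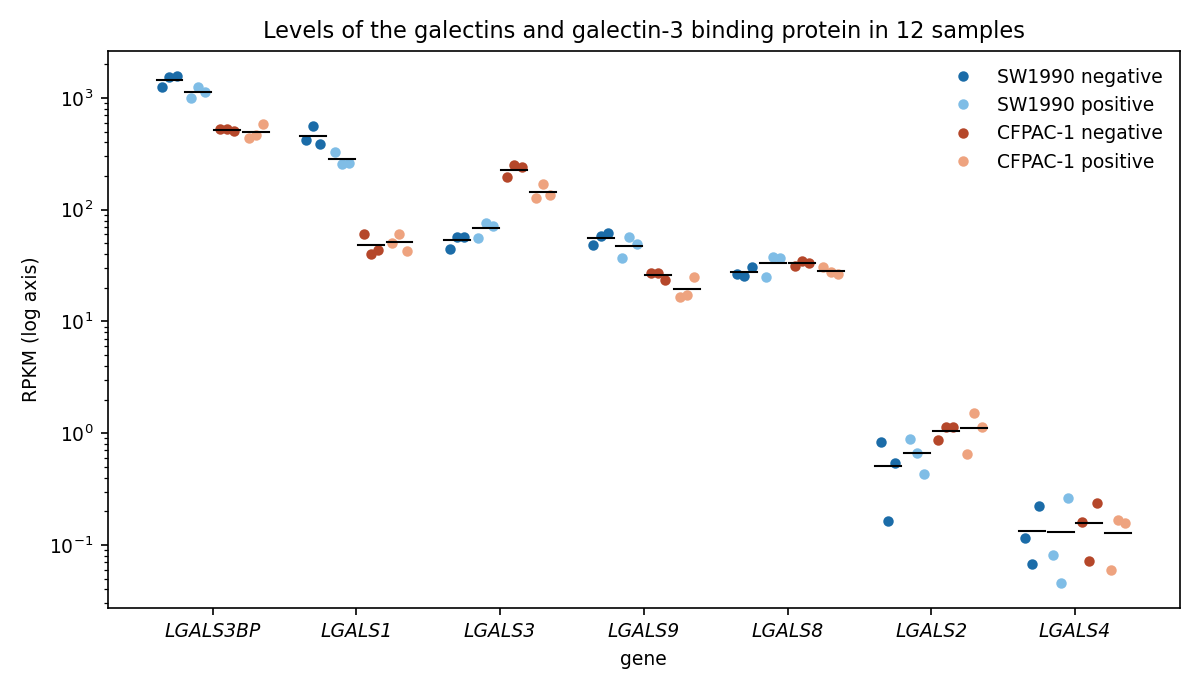
RPKM on a log axis of the 7 genes in each of the 12 samples, with points for samples, colours for the 4 groups and black bars for group means. *LGALS3BP* leads in every group, *LGALS1* is higher and *LGALS3* lower in SW1990 than in CFPAC-1, and *LGALS2* and *LGALS4* lie near or below 1 RPKM.

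Library totals recovered from the RPKM values ran from 9969697 reads (positive CFPAC-1 replicate 3) to 26159330 reads (positive CFPAC-1 replicate 1), and replicates of a group correlated at r of 0.968 to 0.986 across genes. All 10 epithelial markers were expressed in all samples, with a summed level of 1740 to 2026 RPKM in negative SW1990 cells, 5344 to 5556 RPKM in positive SW1990 cells and 7518 to 9894 RPKM in CFPAC-1 cells. Leukocyte markers summed to at most 9.64 RPKM, fibroblast markers to at most 22.6 RPKM, endothelial markers to at most 18.9 RPKM and acinar markers to at most 0.295 RPKM in any sample. RPKM values differ between the lines in their bulk, the median log2 fold change of all genes being 0.19 between negative SW1990 and negative CFPAC-1 cells and -0.15 for the difference between the lines' sort changes. Centring each sample on its median changed the share of called genes that were higher from 57.7% to 45.8% in the CFPAC-1 sort and from 34.0% to 50.0% in the difference between lines.

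The first comparison asked whether cells that present the GCTM-5 antigen differ from cells that do not. Values are log2 fold changes of positive over negative cells on the scale of log2(RPKM + 0.1), from limma fitted across 16236 genes, and a call required more than a 2-fold change together with p under 0.01 before adjustment. By limma, 0 of the 7 genes were called in either line, where 12.1% of all genes tested were called in SW1990 and 9.78% in CFPAC-1. Under a criterion of a Benjamini-Hochberg adjusted p under 0.05 and no fold, 1 of 7 passed in SW1990 (background 28.2%) and 1 of 7 in CFPAC-1 (background 36.5%), and they were different genes (*LGALS1* and *LGALS3*). Groups did not overlap for 1 of 7 in SW1990 (*LGALS1*, against 43.3% of all genes) and for 2 of 7 in CFPAC-1 (*LGALS3* and *LGALS8*, against 48.5%). At an unadjusted limma p under 0.05 and no fold, 3 of 7 passed in SW1990 (*LGALS1*, *LGALS3BP* and *LGALS3*, background 38.2%) and 2 of 7 in CFPAC-1 (*LGALS3* and *LGALS9*, background 46.3%), and voom on recovered reads called 0 in each. In these bulk samples, fewer cells that make a transcript and less transcript per cell cannot be told apart.

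The gene below 2-fold that passed in SW1990 was *LGALS1*. Its mean was 454 ± 89.7 RPKM (SD, n = 3) in negative and 283 ± 39.6 RPKM (n = 3) in positive cells, with a log2 fold change of -0.67 (SE 0.19, limma adjusted p = 0.0180), or 1.60-fold lower. In CFPAC-1 the means were 48.2 ± 11 and 51.1 ± 9.02 RPKM in negative and positive cells, with a log2 fold change of 0.09 (95% interval -0.32 to 0.50, limma adjusted p = 0.743), whose direction turned to -0.0090 after centring each sample on its median. The difference between the lines' sort changes was judged by an adjusted p under 0.05 with no fold threshold, here and for the other genes. For *LGALS1* it was -0.77 (SE 0.27) and did not pass (limma adjusted p = 0.0509). Over the alternatives tried, that adjusted p ran from 0.0186 to 0.139.

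Mesenchymal markers moved with *LGALS1* in SW1990. Of 8 tested, 7 were called lower in positive cells, where 12.1% of all genes were called in either direction. The summed level of the 9 listed was 1408 to 1595 RPKM in negative and 211 to 411 RPKM in positive SW1990 cells. Most of that sum was *VIM*, named after its values were seen, at 1120 to 1286 RPKM in negative and 167 to 350 RPKM in positive cells. Of the 10 epithelial markers, 9 were called higher in positive SW1990 cells (background 12.1%) and 0 in CFPAC-1 (background 9.78%). By limma at an adjusted p under 0.05 and no fold, 3 were higher and 1 lower in CFPAC-1 (background 36.5%). Of the 8 mesenchymal markers, 3 were called lower in CFPAC-1 (background 9.78%). The sums of the 9 listed were 554 to 749 RPKM in negative and 425 to 597 RPKM in positive CFPAC-1 cells. *VIM* alone made 526 to 717 RPKM in negative and 406 to 574 RPKM in positive CFPAC-1 cells. The part of these markers in the *LGALS1* values was not tested.

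The gene that passed in CFPAC-1 was *LGALS3*. Its mean was 228 ± 29.7 RPKM (n = 3) in negative and 143 ± 21.9 RPKM (n = 3) in positive cells, with a log2 fold change of -0.67 (SE 0.15, limma adjusted p = 0.00567), or 1.59-fold lower. In SW1990 the means were 53.1 ± 7.15 and 68.1 ± 10.4 RPKM in negative and positive cells, with a log2 fold change of 0.35 (95% interval 0.02 to 0.69, limma adjusted p = 0.113) that did not pass. The difference between the lines was itself tested and was 1.03 (SE 0.22, limma adjusted p = 0.00472), and *LGALS3* was the only one of the 7 genes to pass (1 of 7, where 26.9% of all genes passed). A share of 1 in 7 is below that background. The difference held after centring (1.17, adjusted p = 0.00402) and in all other alternatives, with adjusted p between 0.000982 and 0.0180.

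*LGALS3BP* did not differ by the criterion in either line. The SW1990 means were 1458 ± 172 and 1137 ± 128 RPKM in negative and positive cells (n = 3 each), and the log2 fold change was -0.36 (95% interval -0.66 to -0.06, limma adjusted p = 0.0751). Over the alternatives tried, that adjusted p ran from 0.0336 to 0.244, always under 2-fold and lower in positive cells. In CFPAC-1 the means were 519 ± 11.2 and 495 ± 77.9 RPKM in negative and positive cells (n = 3 each), and the log2 fold change was -0.08 (95% interval -0.38 to 0.22, limma adjusted p = 0.690). The CFPAC-1 log2 fold change turned to 0.026 after quantile normalization. These intervals hold changes of under 2-fold only.

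*LGALS9* was 56.3 ± 7.11 and 47.8 ± 10.4 RPKM in SW1990 negative and positive cells, and 26.0 ± 1.97 and 19.6 ± 4.76 RPKM in CFPAC-1 negative and positive cells (n = 3 each). Its log2 fold changes were -0.25 (95% interval -0.65 to 0.15, limma adjusted p = 0.347) and -0.42 (95% interval -0.82 to -0.03, limma adjusted p = 0.0890). Without positive CFPAC-1 replicate 3, the shallowest library, the second was -0.61 (limma adjusted p = 0.0151), still below 2-fold. *LGALS8* was 27.5 ± 2.62 and 33.3 ± 7.25 RPKM in SW1990 negative and positive cells and 33.1 ± 1.67 and 28.4 ± 2.13 RPKM in CFPAC-1 negative and positive cells (n = 3 each). Neither of its log2 fold changes passed, at 0.25 (95% interval -0.06 to 0.57, limma adjusted p = 0.222) and -0.22 (95% interval -0.53 to 0.09, limma adjusted p = 0.253). The difference between the lines was 0.48 (SE 0.20, limma adjusted p = 0.105), and it passed the adjusted p of 0.05 after centring (0.62, adjusted p = 0.0359) and without positive SW1990 replicate 1 (0.67, adjusted p = 0.00461).

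For *LGALS2* and *LGALS4* the intervals were wide. The *LGALS2* sort change was 0.45 in SW1990 (95% interval -0.49 to 1.40) and 0.01 in CFPAC-1 (95% interval -0.94 to 0.95), and that of *LGALS4* was -0.09 (95% interval -0.99 to 0.82) and -0.15 (95% interval -1.06 to 0.76). On the scale of log2(RPKM + 0.1), changes of nearly 2-fold lay inside all of these intervals. The *LGALS4* group means (0.128 to 0.156 RPKM) are near the added 0.1, so larger changes of its RPKM lay inside as well.

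**Figure D2:**
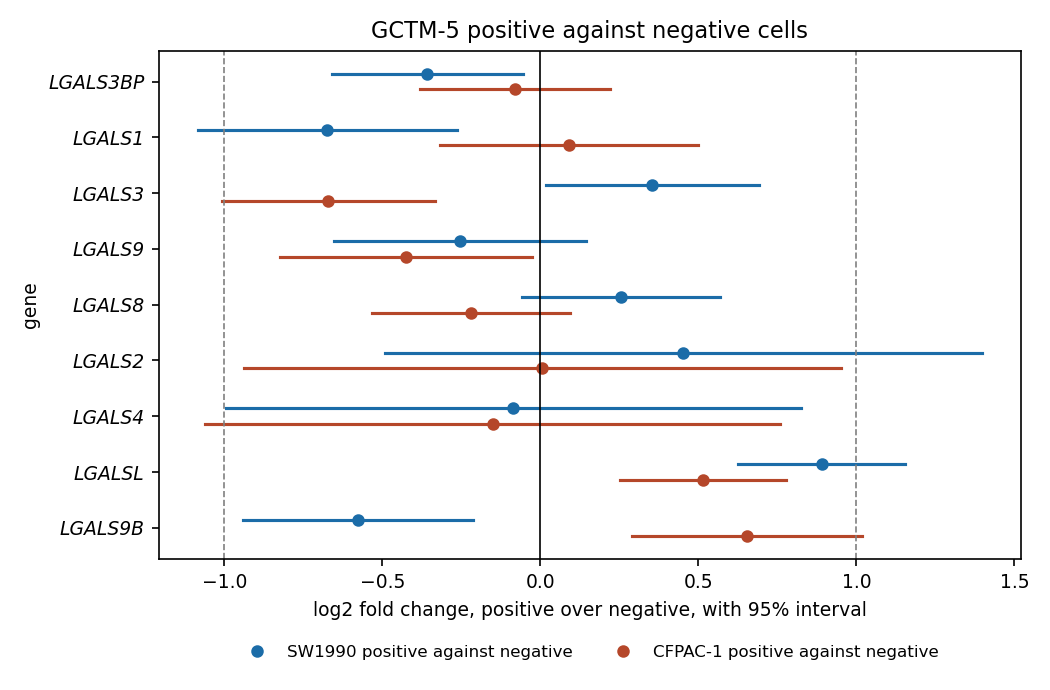
Log2 fold change of GCTM-5 positive over negative cells with its 95% interval (limma, not adjusted for the number of genes) for the 7 genes, *LGALSL* and *LGALS9B*, in SW1990 (blue) and CFPAC-1 (red). Dashed lines mark 2-fold, which no point reaches. The *LGALS3* and *LGALS9B* intervals of the lines lie apart, on opposite sides of 0.

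The second comparison set the lines against each other within a sorted class, using the same libraries as the sort comparisons. Of the 7 genes, 4 were called between negative cells, where 36.9% of all genes were called, and 4 between positive cells, where 28.5% were called. In negative cells 3 were higher (background 21.9%) and 1 lower (background 15.0%) in SW1990, and in positive cells likewise 3 were higher (background 14.8%) and 1 lower (background 13.7%). Groups did not overlap for 6 of 7 between negative cells (75.2% of all genes) and for 4 of 7 between positive cells (63.9%). *LGALS1*, *LGALS3BP* and *LGALS9* were the higher ones and *LGALS3* the lower one in both classes.

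*LGALS1* gave the largest of these differences. It was 9.43-fold higher in negative SW1990 than in negative CFPAC-1 cells, with a log2 fold change of 3.24 (SE 0.19, limma adjusted p = 2.39e-08). In positive cells it was 5.55-fold higher, with a log2 fold change of 2.47 (SE 0.19, limma adjusted p = 3.63e-07). All SW1990 samples were above all CFPAC-1 samples in both classes.

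*LGALS3BP* was 2.79-fold higher in negative SW1990 cells (log2 fold change 1.48, SE 0.14, limma adjusted p = 1.39e-06) and 2.31-fold higher in positive ones (1.21, SE 0.14, limma adjusted p = 1.15e-05). *LGALS9* was 2.16-fold higher in negative SW1990 cells (1.11, SE 0.18, limma adjusted p = 0.000169) and 2.43-fold higher in positive ones (1.28, SE 0.18, limma adjusted p = 7.08e-05). After centring, the negative-cell value of *LGALS9* was 0.92, under the 2-fold threshold. The ratio of *LGALS3BP* to *LGALS9* stayed between 19.3 and 27.5 over all 12 samples, while both genes differed between the lines. It was 25.2 to 26.6 in negative and 22.1 to 27.5 in positive SW1990 cells. In CFPAC-1 it was 19.3 to 21.4 in negative and 23.2 to 27.2 in positive cells, so the sorted groups did not overlap there.

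*LGALS3* was 4.29-fold lower in negative SW1990 than in negative CFPAC-1 cells (log2 fold change -2.10, SE 0.15, limma adjusted p = 1.77e-07) and 2.11-fold lower in positive ones (-1.07, SE 0.15, limma adjusted p = 7.40e-05). The positive-cell value was under 2-fold without positive SW1990 replicate 1 (-0.94) or without positive CFPAC-1 replicate 2 (-0.95). *LGALS8* did not pass in either class, at -0.27 (95% interval -0.58 to 0.05) in negative and 0.21 (95% interval -0.11 to 0.52) in positive cells. Neither did *LGALS4*, at -0.13 (95% interval -1.04 to 0.78) and -0.06 (95% interval -0.97 to 0.85). *LGALS2* was -0.64 (95% interval -1.58 to 0.30) in positive cells. In negative cells it was -1.09 (95% interval -2.03 to -0.14, limma adjusted p = 0.0409), which missed the unadjusted p of 0.01 but passed an adjusted p of 0.05. That value was called under quantile normalization (-1.31) and without negative SW1990 replicate 1 (-1.48), and was -0.57 without negative SW1990 replicate 2.

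**Figure D3:**
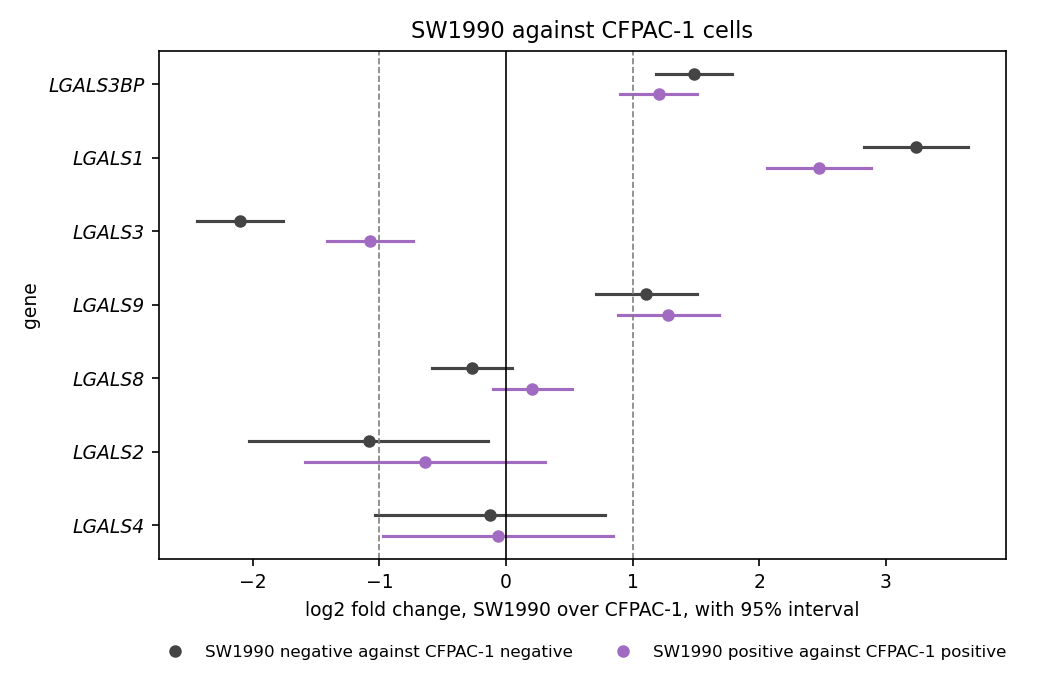
Log2 fold change of SW1990 over CFPAC-1 with its 95% interval (limma, not adjusted for the number of genes) for the 7 genes, in GCTM-5 negative cells (grey) and positive cells (purple), with dashed lines at 2-fold. *LGALS1* lies farthest to the right and *LGALS3* farthest to the left, and both lie nearer to 0 in positive cells.

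Other genes of the galectin family numbered 11 in the list used, of which 10 were in the table and 3 passed the filter. *CLC*, *LGALS7*, *LGALS13*, *LGALS14* and *LGALS16* were listed at 0 in every sample, and *LGALS12* and *LGALS7B*, the latter a near-copy of *LGALS7*, held at most 13 and 3 reads in a sample. By limma 0 of the 3 were called in either sort, as by voom, and 2 of 3 had an unadjusted p under 0.05 in each (38.2% of all genes in SW1990 and 46.3% in CFPAC-1). *LGALSL*, which encodes a galectin-like protein without a known sugar-binding role, was 0.89 in SW1990 (SE 0.12, limma adjusted p = 0.000160) and 0.51 in CFPAC-1 (SE 0.12, limma adjusted p = 0.00639), higher in positive cells in both lines and under 2-fold.

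*LGALS9B* and *LGALS9C* are near-copies of *LGALS9* elsewhere on chromosome 17, on the minus strand between 20352708 and 20370852 and on the plus strand between 18380051 and 18398259. Their coding sequences shared 96.3% and 95.9% of aligned bases with *LGALS9* and 99.5% with each other. A coding stretch of 60 bases from each (GRCh37, at chr17:25967674-25967733 plus strand, chr17:20361562-20361621 minus strand and chr17:18389324-18389383 plus strand) is shown because it holds some of the few bases by which a read can be told apart. Capitals mark the 6 positions at which the copies differ.
LGALS9: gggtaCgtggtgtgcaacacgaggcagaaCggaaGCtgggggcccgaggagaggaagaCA
LGALS9B: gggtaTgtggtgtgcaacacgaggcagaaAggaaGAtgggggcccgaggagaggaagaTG
LGALS9C: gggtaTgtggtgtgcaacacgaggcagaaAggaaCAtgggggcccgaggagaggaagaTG

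Windows of 100 bases were compared among the annotated transcripts of the galectin genes and *LGALS3BP* only. Of these windows, 2.61% of *LGALS9*, 43.9% of *LGALS9B* and 22.8% of *LGALS9C* occurred in another of these genes. The windows were pooled over all annotated transcripts of a gene (168 shared of 6439 from 16 transcripts for *LGALS9*). The percentages are therefore not shares of reads, and the share within a single transcript can be larger. None did for the other 6 members, and genes outside this family were not searched. How the counting treated reads that match several genes is not given in the sources used here, so the split between the copies is uncertain. *LGALS9B* and *LGALS9C* together took 8.25% to 12.7% of the reads of the 3 genes in SW1990, 2.69% to 3.92% in negative CFPAC-1 and 5.15% to 8.54% in positive CFPAC-1 cells. With their reads added to *LGALS9*, the sort changes of *LGALS9* were -0.29 in SW1990 and -0.37 in CFPAC-1 and the line differences were 1.24 in negative and 1.32 in positive cells, so no call changed.

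*LGALS9B* was listed at 5.40, 6.08 and 7.73 RPKM in negative and 3.94, 4.31 and 4.40 RPKM in positive SW1990 cells. In CFPAC-1 its values were 1.07, 1.10 and 1.37 RPKM for negative samples and 2.18, 1.71 and 1.86 RPKM for positive ones. The groups did not overlap in either line, with positive samples lower in SW1990 and higher in CFPAC-1, on 23 to 176 reads per sample. Its log2 fold change was -0.58 in SW1990 (SE 0.17, limma adjusted p = 0.0220) and 0.65 in CFPAC-1 (SE 0.17, limma adjusted p = 0.00992), and the difference was -1.23 (SE 0.24, limma adjusted p = 0.00257). *LGALS9C* held 74, 102 and 113 reads in negative and 36, 63 and 73 reads in positive SW1990 cells, 0 in all negative CFPAC-1 samples and 1, 2 and 1 in positive CFPAC-1 samples. Set against 3 reads per library, it was at least 32.5-fold higher in negative SW1990 than in negative CFPAC-1 cells. In positive cells the ratio of its 172 reads to 4 reads, per library total, was 43.6, with an exact 95% interval of 16.7 to 162 that covers counting error only.

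Proteins that galectins and galectin-3 binding protein bind were taken as lists, each described by its calls and its median beside the median of all genes tested (-0.04 in the SW1990 sort and 0.05 in the CFPAC-1 sort). Of 19 galectin-binding surface and matrix glycoproteins, 16 were tested. In SW1990, 3 were called higher and 3 lower in positive cells (median -0.30), and in CFPAC-1 1 was called higher and 1 lower (median -0.18). Of all genes, 12.1% were called in either direction in SW1990 and 9.78% in CFPAC-1. *MUC1*, a membrane mucin that binds galectin-3, was 3.60 (SE 0.18, limma adjusted p = 1.58e-07) in SW1990, and *CEACAM5*, the carcinoembryonic antigen, was 3.72 (SE 0.62, limma adjusted p = 0.000732). *MUC1* was 32.1, 20.4 and 36.5 RPKM in negative and 313, 393 and 350 RPKM in positive SW1990 cells. In CFPAC-1 it was -0.82 (limma adjusted p = 0.00406), under 2-fold, and *CEACAM5* was -0.14 (limma adjusted p = 0.893).

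Of 10 matrix partners of galectin-3 binding protein, 1 was called higher and 4 lower in positive SW1990 cells (median -0.84, background 12.1%). In CFPAC-1, 1 was called higher and 1 lower (median -0.28, background 9.78%). Besides matrix genes this list holds *ITGB1*, which encodes a surface integrin chain. *FN1* and *ITGB1* are also among the glycoproteins above. The 4 that fell in SW1990 were *FN1* (-1.05), *COL6A1* (-2.31), *COL6A2* (-2.69) and *COL6A3* (-3.70), which encode fibronectin and the chains of collagen VI. They were named after their values were seen, except *COL6A3*. *NID2*, a nidogen of basement membranes, was higher in positive cells of both lines, at 1.45 in SW1990 (SE 0.23, limma adjusted p = 0.000521) and 2.84 in CFPAC-1 (SE 0.23, limma adjusted p = 1.50e-05). The mesenchymal markers given above moved with the genes that fell, and their part was not tested.

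Enzymes that build or cap the glycans galectins bind gave 1 called gene of 11 in SW1990 (background 12.1%). In CFPAC-1 limma and voom called 0 (background 9.78% by limma and 10.6% by voom), and 5 had an unadjusted limma p under 0.05 (background 46.3%). The medians were -0.10 in SW1990 and 0.02 in CFPAC-1. With an adjusted p under 0.05 and no fold, limma passed 2 of 11 in SW1990 (background 28.2%) and 4 of 11 in CFPAC-1 (background 36.5%). Neither share was above its background. The called gene was *ST6GAL1*, the sialyltransferase whose alpha-2,6-linked cap blocks several galectins from binding. It was 2.96, 3.66 and 3.61 RPKM in negative and 0.327, 0.598 and 0.453 RPKM in positive SW1990 cells, with a log2 fold change of -2.67 (SE 0.28, limma adjusted p = 2.07e-05), and -0.12 in CFPAC-1 (limma adjusted p = 0.776). Its SW1990 groups did not overlap.

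Of 4 cytosolic partners of galectins, *TRIM16*, a ubiquitin ligase that works with galectin-3 at damaged lysosomes, was called higher in positive SW1990 cells (1 of 4, background 12.1%). It was 22.8, 25.8 and 23.1 RPKM in negative and 89.0, 91.6 and 83.4 RPKM in positive SW1990 cells, with a log2 fold change of 1.88 (SE 0.09, limma adjusted p = 1.58e-07). In CFPAC-1 it was 0.74 (SE 0.09, limma adjusted p = 0.000167), under 2-fold, and the difference between the lines was 1.14 (SE 0.13, limma adjusted p = 0.000105). *CALCOCO2*, the autophagy receptor that galectin-8 recruits, was -0.34 and -0.26 in SW1990 and CFPAC-1, *PDCD6IP* was -0.12 and 0.03, and *TSG101* was 0.03 and 0.01, and these 3 were not called.

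The genes of the other proteins isolated with the GCTM-5 antigen were *FCGBP*, a mucus protein, *C3*, the central complement protein, and *HPX*, the haem carrier haemopexin. By mass spectrometry the study found FCGBP in the complex of CFPAC-1 but not of an SW1990 subclone. It reported C3 in most but not all analyses of the SW1990 subclone. HPX was found in every CFPAC-1 analysis but in a minority of those of the subclone. LGALS3BP itself was found in every analysis of the subclone, with immunoblots for SW1990, and in a minority of the CFPAC-1 analyses. The values here are of RNA and not of protein. By limma 0 of the 2 tested were called in either sort (background 12.1% in SW1990 and 9.78% in CFPAC-1), although voom called 1 lower in each. The voom background was 10.6% in CFPAC-1 and was not taken in SW1990, so the SW1990 voom call cannot be judged against it. At an unadjusted limma p under 0.05, 1 passed in SW1990 (background 38.2%) and 2 in CFPAC-1 (background 46.3%). *FCGBP* was -1.37 (SE 0.45, limma adjusted p = 0.0410) in SW1990 and -1.05 (SE 0.45, limma adjusted p = 0.0879) in CFPAC-1, from levels under 1 RPKM in all samples, and *C3* was 0.28 (limma adjusted p = 0.539) and -0.91 (limma adjusted p = 0.0297). The *FCGBP* means in negative and positive cells were 0.551 and 0.148 RPKM in SW1990 and 0.512 and 0.209 RPKM in CFPAC-1. At such levels the added 0.1 makes the log2 values smaller than the change in RPKM. *HPX* held at most 11 reads in a sample and was not tested. *LGALS3BP* was far above each of them in every sample.

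**Figure D4:**
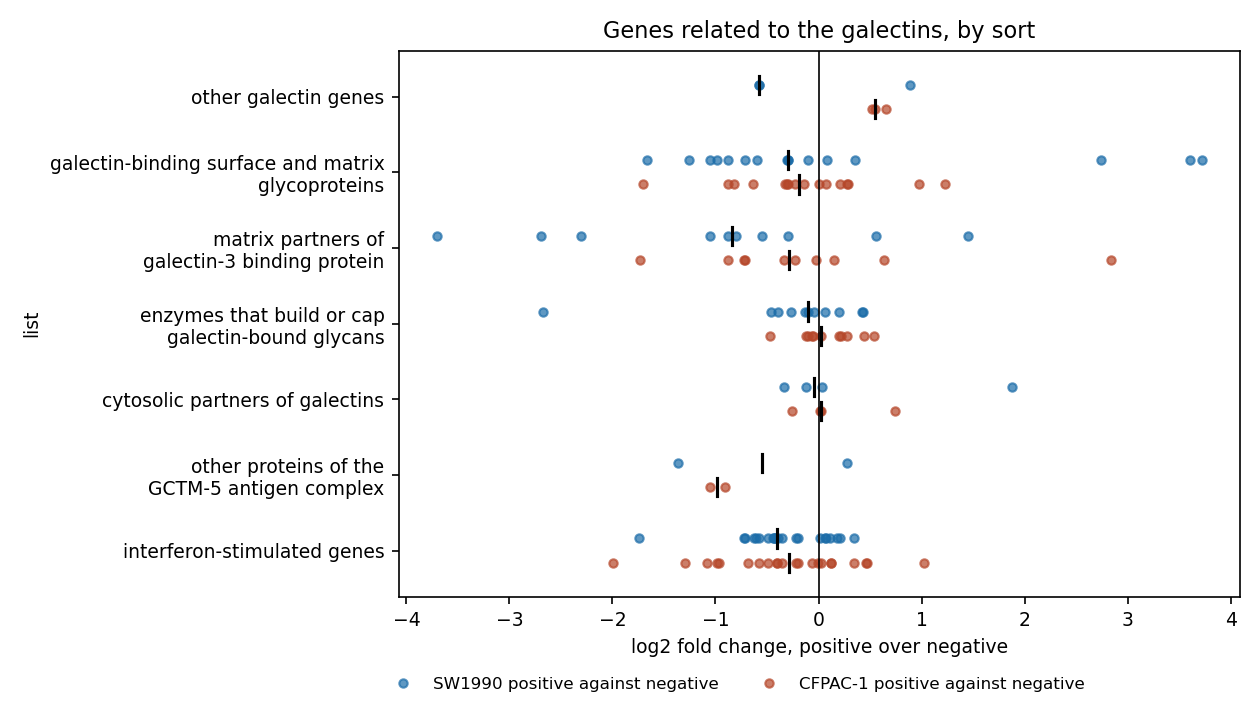
Log2 fold change of GCTM-5 positive over negative cells in SW1990 (blue) and CFPAC-1 (red) for the tested genes of 7 lists related to the galectins, a point for each gene and a black bar for the median of the list. The widest spreads are among glycoproteins and matrix partners in SW1990, and the medians lie between -0.98 and 0.55.

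Interferon-stimulated genes were counted because *LGALS3BP* is known as interferon-inducible. Of 22 genes, all tested, 17 were called higher and 1 lower in negative SW1990 than in negative CFPAC-1 cells (median 2.14, against 0.19 for all genes). Of all genes, 21.9% were called higher and 15.0% lower there. Between positive cells, 17 were higher and none lower (median 2.01, against 0.06 for all genes), where 14.8% of all genes were higher and 13.7% lower. *LGALS3BP* and *LGALS9* were higher in SW1990 in both comparisons, as given above. In the SW1990 sort 1 of the 22 was called, *BST2*, which was lower in positive cells (-1.75, limma adjusted p = 0.000317, background 12.1%). In the CFPAC-1 sort 1 was called higher and 2 lower (background 9.78%), and *IFITM1* was -2.0 (limma adjusted p = 0.000281). By voom on recovered reads, 1 was called higher and 5 lower in CFPAC-1 (background 10.6%).

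The summed level of the 22 genes was 5317 to 6497 RPKM in negative and 4145 to 5290 RPKM in positive SW1990 cells, and 1745 to 2056 RPKM in negative CFPAC-1 cells. In positive CFPAC-1 cells it was 806, 1063 and 1869 RPKM. The third of these samples also had the highest *LGALS3BP* and *LGALS9* of its group and the fewest reads. Without it, 6 of the 22 were called in the CFPAC-1 sort, all lower in positive cells, where 10.4% of all genes were called.

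Within each line, the 5 expressed members and the mean log2 level of the 22 interferon-stimulated genes were set against each other over the 6 samples, 30 relations in all, with exact 2-sided permutation tests. *LGALS3BP* followed the interferon-stimulated genes with Pearson r = 0.93 (exact p = 0.0194, adjusted 0.194) and Spearman rho = 0.89 (exact p = 0.0333, adjusted 0.350) in SW1990. In CFPAC-1 r was 0.91 (exact p = 0.00833, adjusted 0.125) and rho 0.83 (exact p = 0.0583, adjusted 0.350). Without the 2 samples farthest from the median of *LGALS3BP*, r was 0.95 and 0.73 in SW1990 and CFPAC-1. None of the 30 relations passed after Benjamini-Hochberg adjustment.

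*LGALS9* and the interferon-stimulated genes gave r = 0.79 (exact p = 0.0625, adjusted 0.255) and rho = 0.77 (exact p = 0.103, adjusted 0.454) in SW1990. In CFPAC-1 r was 0.84 (exact p = 0.0486, adjusted 0.255) and rho 0.60 (exact p = 0.242, adjusted 0.558). Without the 2 samples farthest from the median of *LGALS9*, r was 0.61 in SW1990 and -0.52 in CFPAC-1, so the CFPAC-1 value rests on those samples.

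*LGALS3BP* and *LGALS9* gave r = 0.89 (exact p = 0.00694, adjusted 0.125) and rho = 0.94 (exact p = 0.0167, adjusted 0.350) in SW1990. The values in CFPAC-1 were r = 0.85 (exact p = 0.0333, adjusted 0.250) and rho = 0.83 (exact p = 0.0583, adjusted 0.350). Without the 2 samples farthest from the median of *LGALS3BP*, r was 0.71 in SW1990 and 0.999 in CFPAC-1. The 6 samples of a line include both sorted groups, so a group difference shared by the genes is part of these values.

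**Figure D5:**
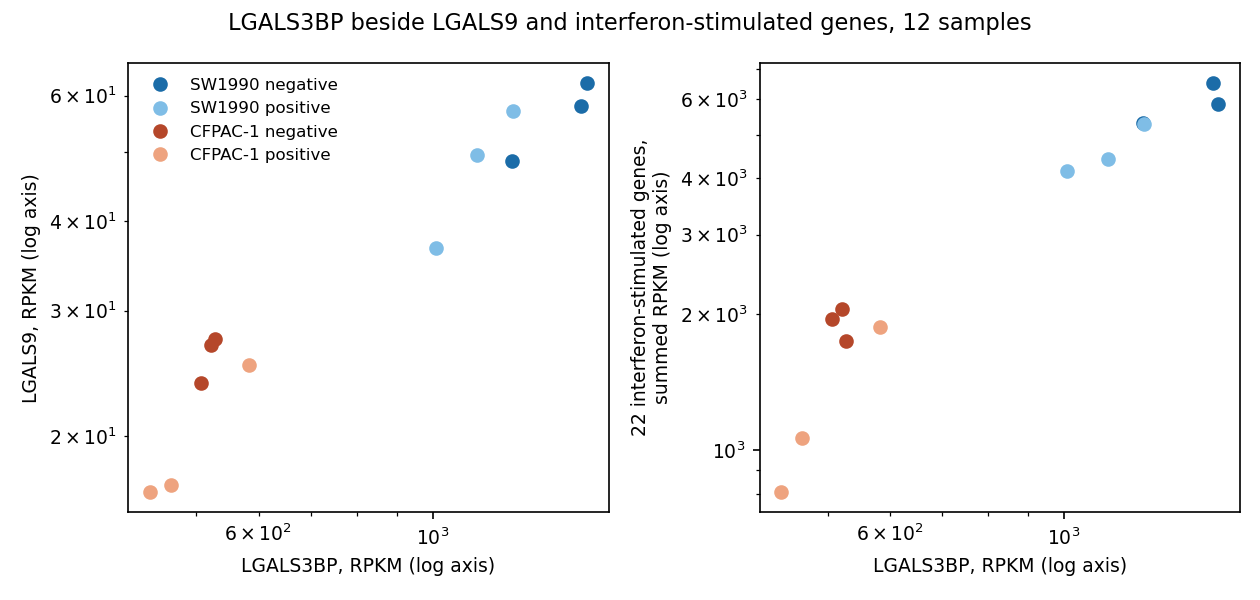
*LGALS3BP* RPKM against *LGALS9* RPKM (left) and against the summed RPKM of 22 interferon-stimulated genes (right) in the 12 samples, all axes logarithmic, colours for the 4 groups. SW1990 samples sit at the upper right and CFPAC-1 samples at the lower left, and positive CFPAC-1 replicate 3 lies with the negative CFPAC-1 samples.

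Genes with a pattern like that of a member were taken as the 3 with the highest Pearson r of log2(RPKM + 0.1) over the 12 samples, among 13266 genes whose mean RPKM reached 1 (13267 for *LGALS2* and *LGALS4*). The samples fall into separate clusters by line, so these values mostly give the difference between lines and are a description only. For *LGALS3* they were *RNF39*, *MAP3K13* and *CLMN*, with r from 0.988 to 0.990. For *LGALS3BP* they were *ZNF319*, *GRINA* and *LOC407835* (0.992 to 0.993) and for *LGALS9* *MPG*, *CTDSP1* and *EVI5L* (0.983 to 0.986). *LGALS8* was most like *GDPD3*, *SLC16A5* and *HEATR1* (0.861 to 0.894), the last of which overlaps it on the opposite strand. *LGALS2* and *LGALS4* had no r above 0.878 and 0.726.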

How the data were processed

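The deposited RPKM values were made by the authors, who aligned reads to hg19 (GRCh37), counted them by gene and normalized for library size and gene length with QuasR; the annotation, strand use and the QuasR version are not given in the sources used here. Groups were taken from the labels. Library totals and whole reads were recovered from the RPKM values using GENCODE 44 lengths of single-exon genes (12 of 12 simulated totals were recovered) and served for depth, a floor of 3 reads and voom. Expression on the scale log2(RPKM + 0.1) was modelled by limma 3.58.1 (R 4.3.3; eBayes with trend) with 4 group means, for the 16236 of 23346 genes whose mean RPKM reached 0.1. All tests were 2-sided. On simulated 4-fold changes, 97 to 99 of 100 genes were called in each direction. Smaller changes were not simulated, and a measured change under 2-fold cannot be called by the rule. The study's methods name TCC, which was not used. Exact permutation of 3 against 3 samples cannot go below p = 0.1, so no such test is reported. Named genes were all 7 members, up to 2 called genes a list with the largest sort change, all genes of lists of at most 4, and the 3 most alike genes a member (those of *LGALS1* are not reported here). The members and lists were chosen with earlier results of these data known. Tables and plots were made in Python 3.11.15.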

Additional observations from a re-analysis of the deposited data

Results flagged for a closer look

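Results are given here where the sort changes of the lines differed by a direct test (limma, adjusted p under 0.05). Among the 7 genes this was *LGALS3*, with a difference between the SW1990 and CFPAC-1 log2 fold changes of 1.03 (adjusted p = 0.00472): the change was 0.35 in SW1990, which did not pass on its own, and -0.67 in CFPAC-1. Among other galectin genes it was *LGALS9B*, at -1.23 (adjusted p = 0.00257), whose reads may be shared with *LGALS9* and *LGALS9C*.

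Among the related genes named above, the difference was positive for *MUC1* at 4.43 (adjusted p = 2.61e-06), for *CEACAM5* at 3.85 (adjusted p = 0.00685), for *IFITM1* at 1.37 (adjusted p = 0.0218) and for *TRIM16* at 1.14 (adjusted p = 0.000105). It was negative for *COL6A3* at -3.85 (adjusted p = 9.61e-06), for *ST6GAL1* at -2.55 (adjusted p = 0.000669), for *NID2* at -1.38 (adjusted p = 0.00845) and for *BST2* at -1.17 (adjusted p = 0.0343). These related genes were named by the size of their sort change, so their number says nothing of their lists.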

How the results depend on the processing

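Of 828 member values under the alternatives, 780 kept their direction and side of the threshold, 14 passed it, 3 fell below it (*LGALS9* between negative cells and *LGALS3* between positive cells, given above) and 31 turned direction; the cause was not tested. Of the 14 that passed, 3 were *LGALS2* between negative cells. The number of members called was 1 in each sort with an adjusted p under 0.05 and no fold. For the difference between lines it was 2 with a pseudocount of 1, a mean RPKM of at least 1, centring or voom on recovered reads (an alternative chosen after seeing the data, as was adding the reads of the *LGALS9* copies). It ran from 1 to 3 as single samples were left out. The value of 3 came without positive SW1990 replicate 1 (*LGALS3*, *LGALS1* and *LGALS8*), and the others at 2, each with *LGALS1* added, came without negative SW1990 replicate 3, negative CFPAC-1 replicate 1 or positive CFPAC-1 replicate 3. Counts in the related lists stayed within 1.5 times in 752 of 833 cases.

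Turned sort changes in CFPAC-1 were -0.0090 and -0.020 for *LGALS1* (centring and quantile normalization), -0.093, -0.012 and -0.048 for *LGALS2* (centring, quantile normalization and voom) and 0.026 for *LGALS3BP* (quantile normalization). Quantile normalization gave *LGALS4* 0.22 in the SW1990 sort and 0.011 between positive cells. With single samples left out, the CFPAC-1 sort change ran from -0.038 to 0.27 for *LGALS1*, from -0.24 to 0.31 for *LGALS2*, from -0.20 to 0.0043 for *LGALS3BP* and from -0.41 to 0.086 for *LGALS4*. The SW1990 sort change ran from -0.064 to 0.85 for *LGALS2* and from -0.47 to 0.19 for *LGALS4*, and the difference between lines from -0.070 to 0.84 and from -0.32 to 0.34. *LGALS4* also ran from -0.39 to 0.094 between negative and from -0.45 to 0.21 between positive cells.

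Whether same-numbered samples came from the same sort is not given in the sources used here, so samples were treated as unpaired. Deviations of same-numbered samples from their group means correlated at 0.18, 0.016 and 0.12 in SW1990 and at -0.02, 0.0013 and -0.06 in CFPAC-1. Differently numbered SW1990 samples ran from -0.25 to 0.16. With 3 samples in each group these values cannot settle the pairing. With a replicate block, the members called were 0 in each sort, 4 in each comparison of lines and 1 for the difference, as without it. Depth limits *LGALS2* and *LGALS4*, which rested on at most 15 and 6 reads in a sample.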
